A study of Mus musculus with 18 samples.

Results

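In APC-deleted MC38 cells carrying an inducible hairpin against Tdo2, 78 genes differed between 48 and 24 h of doxycycline, and 67 of them were lower at the later time. The falls included 18 of 51 tested genes from lists of chemokines, colony-stimulating factors, related cytokines, acute-phase proteins and NF-kB feedback genes. Over all genes tested 0.446% were called lower. The lists were chosen with earlier results of these data known. The comparison was set by the sample titles: 3 libraries labelled 48 h and 3 labelled 24 h, which makes 6 of the 18 libraries of the series. MC38 is a cell line from a colon adenocarcinoma of a C57BL6 mouse. The series profiled an APC-intact and an APC-deleted line of it by RNA sequencing, each untreated and after 24 or 48 h of doxycycline at 1 µM, with 3 libraries per group.

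All 6 libraries compared came from cells with APC deleted, with the hairpin named ishTDO2 in their titles and with doxycycline. They differed only in the time stated. The labels do not say whether the line was a single clone, nor which hairpin sequence it held. No library without doxycycline was paired with either time, so the time under doxycycline and the time in culture cannot be told apart. The deposited file names carry a run designation, and on that reading both times lay in the same run. The 3 untreated APC-deleted libraries lay in the other run, and their titles do not name the hairpin. The labels call the replicates biological triplicates without naming separate cultures. Each p-value measures the spread between libraries within groups, pooled over the 18 libraries, and that spread may be technical.

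As background, doxycycline switches on a promoter that a tetracycline-controlled regulator holds, and the hairpin RNA made from it directs the loss of a matching mRNA. Tdo2 encodes tryptophan 2,3-dioxygenase, which opens the kynurenine pathway of tryptophan breakdown, and kynurenine can activate the aryl hydrocarbon receptor. APC is part of the complex that marks beta-catenin for degradation. Many chemokine, colony-stimulating factor and acute-phase genes are switched on together by NF-kB and C/EBP factors in inflamed tissue, where their products draw in neutrophils and monocytes.

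Depth ran from 76705116 to 111948430 gene counts in the 6 libraries, and 15006 genes were tested. Values below are CPM, counts scaled to the library's total with TMM factors, and gene positions are those of the deposited files (mm10). Against the label of an adenocarcinoma, epithelial markers were nearly absent: 7 of 9 stayed under 1 CPM in all 6 libraries, and the 9 summed to 3.57 to 3.91 CPM at 24 h and 3.49 to 4.27 at 48 h. Cdx2, an intestinal transcription factor, had no count in any of the 6. The 9 fibroblast markers summed to 3500.0 to 3608 CPM at 24 h and 3438 to 3496 at 48 h, mostly from collagen genes and Dcn. But 2 of them, Lum and Thy1, stayed under 1 CPM, and Thy1 had no count in any of the 6 libraries. Of the 8 haematopoietic markers 7 were under 1 CPM and Cd68 made up most of a sum of 15.5 to 16.5 CPM at 24 h and 13.4 to 19.0 at 48 h. The 6 endothelial markers summed to 4.09 to 4.21 and 3.50 to 3.61 CPM. Of these markers 4 epithelial, 8 fibroblast, 3 haematopoietic and 3 endothelial ones were tested between the times, and none passed. The rest were read too low to be tested. In bulk RNA, fewer cells of a type and less RNA per cell cannot be told apart.

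One library, 48 h replicate 2, stood apart. On the first principal component of the 6 libraries (29.4% of the variance) it scored 40.4, and the other 5 scored between -18.8 and -4.8. Pairs holding it differed with a chi-square per degree of freedom of 77.6 and 81, against 12.9 to 23.8 for the other 4 pairs within a group. It also had the lowest depth of the 6 and the highest share of reads without a unique position, 17.2%. Its deviation from the other 48 h libraries followed gene length, with a median of 0.07 on the log2 scale in the shortest of 5 groups of genes by exon length and -0.12 in the longest. Counts over all genes are therefore given with and without it.

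**Figure D1:**
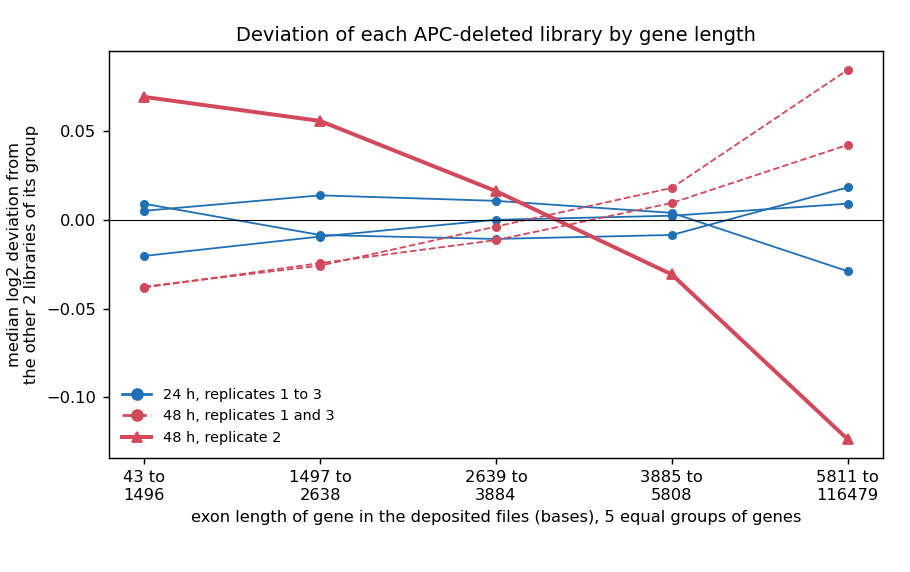
Median log2 deviation of each of the 6 libraries from the mean of the other 2 of its group (y axis) in 5 groups of genes by exon length in bases (x axis); lines join the values of 1 library. The line of 48 h replicate 2 falls from 0.07 in the shortest genes to -0.12 in the longest, and the 3 libraries at 24 h stay within 0.03 of 0.

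The gene targeted by the hairpin could not check the labels. Tdo2 (ENSMUSG00000028011, chr3:81957090-81975750, minus strand) measured 0.100, 0.152 and 0.0723 CPM at 24 h and 0.0916, 0.0907 and 0.140 CPM at 48 h. The 2 groups overlapped, and the untreated APC-deleted libraries held 0.291, 0.0623 and 0.144 CPM. The log2 fold change of 48 h over 24 h was -0.02 ± 0.53 (SE; edgeR adjusted p = 1), with a 95% interval of -1.13 to 1.10, so a fall or rise of about 2-fold was not detectable at this level. Apc (ENSMUSG00000005871) was read at 81.0, 83.4 and 84.2 CPM at 24 h and 89.8, 73.9 and 88.4 CPM at 48 h, with a log2 fold change of 0.02 ± 0.12 (edgeR adjusted p = 0.98). The counts cover the whole gene and do not show whether its product was lost.

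Between 24 and 48 h, 67 genes fell and 11 rose at an edgeR adjusted p under 0.05, which is 0.52% of the 15006 genes tested (0.446% lower and 0.0733% higher). At an unadjusted p under 0.05 there were 1353 genes. In every one of the 78 the 3 libraries of one time did not overlap with the 3 of the other, a separation found in 12.8% of all genes tested. The changes were small for most: the median log2 fold change was -0.53 among the falls and 0.48 among the rises, against 0.01 over all genes. Only 14 falls and 1 rise reached 2-fold. Some of the largest falls were at low counts or had no assigned symbol, and are named here after their values were seen. The largest of all was RP24-312B12.1, from 1.25, 1.498 and 1.52 CPM to 0.252, 0.350 and 0.408 CPM (-2.07 ± 0.22; edgeR adjusted p = 1.8e-05). Atp2b4, a calcium pump gene, changed by -1.31, Pou2f2, which encodes the transcription factor OCT2, by -1.23, and Fndc7 by -1.03, each read at under 3 CPM. RP24-312B12.1 (chr7:25089753-25092182) lies just beyond the 3′ end of Pou2f2 (chr7:25092472-25159922), both on the minus strand. Whether their falls are separate was not tested. DESeq2 called 191 genes (61 higher and 130 lower), and a fit of the 6 libraries alone called 22 (3 and 19). Without 48 h replicate 2 the count was 193 genes (1.26% of 15282 tested), of which 66 (0.432%) were higher and 127 (0.831%) lower, so that 65.8% of the calls were falls against 85.9% with it. Of the 78 genes, 72 remained called without that library and all 78 kept their sign. Leaving out 24 h replicate 2 left 47 calls (5 higher and 42 lower), leaving out 48 h replicate 3 left 44 falls, and leaving out 24 h replicate 3 left 7 rises.

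**Figure D2:**
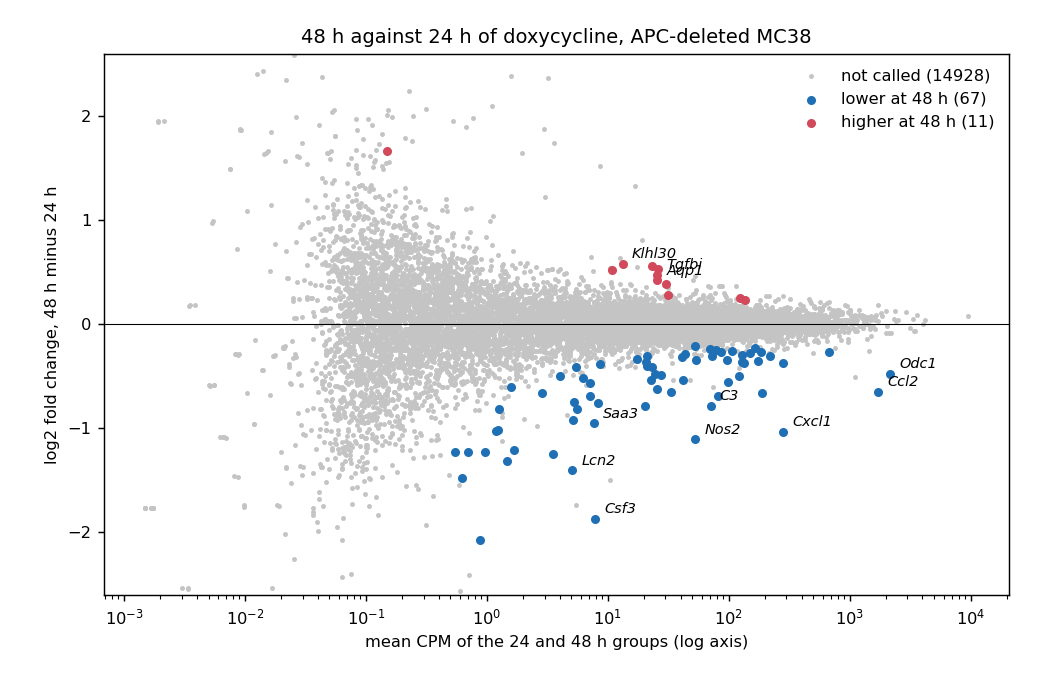
Log2 fold change of 48 h over 24 h (y axis) against the mean CPM of both groups (x axis, log scale) for each of 15006 genes; 16 genes lie beyond the y axis. The 67 falls (blue) reach across the range of levels, from Ccl20 under 1 CPM to Ccl2 and Odc1 among the most highly read, and the 11 rises (red) are smaller in size apart from Fam107a, under 1 CPM.

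Chemokine genes fell in both structural families. Of the 8 tested genes on the CXC and CX3C chemokine list, 5 were lower at 48 h and none higher (0.446% of all genes tested were called lower), with a median log2 fold change of -0.78 against 0.01 over all genes. Of the 8 CC chemokine genes tested, 3 were lower and none higher, with a median of 0.00. Cxcl1 (ENSMUSG00000029380, chr5:90891241-90893115), a neutrophil attractant that binds CXCR2, measured 426, 364 and 349.6 CPM at 24 h and 195, 190.4 and 173 CPM at 48 h. The highest library at 48 h lay far below the lowest at 24 h, and the log2 fold change was -1.03 ± 0.08 (SE; edgeR adjusted p = 5.4e-07), a fall to a mean 2.04-fold lower. Its relatives Cxcl3 and Cxcl5, which act on the same receptor, were read at much lower counts. Cxcl3 went from 1.22, 1.61 and 1.20 CPM to 0.504, 0.700 and 0.526 CPM (-1.23; edgeR adjusted p = 0.0045), and Cxcl5 from 2.96, 2.14 and 1.95 CPM to 1.08, 0.894 and 1.07 CPM (-1.21; edgeR adjusted p = 0.009). The Cxcl3 call was lost without 24 h replicate 2 (edgeR adjusted p = 0.053) and the Cxcl5 call without 24 h replicate 1 (edgeR adjusted p = 0.085). Cxcl16, a membrane-anchored chemokine for CXCR6-bearing T cells, fell from 48.6, 51.2 and 50.00 CPM to 32.03, 38.4 and 33.0 CPM (-0.54 ± 0.06; edgeR adjusted p = 9.7e-05). Zmynd15 overlaps Cxcl16 on the opposite strand, and whether counting used strand is not given in the sources used here. The other member called, Cxcl2, was named after its values were seen: it fell by 1.02 on the log2 scale (edgeR adjusted p = 0.045) at under 2 CPM and lost its call when any of the 6 libraries was left out. Without 48 h replicate 2 the count was again 5, with Cx3cl1 in place of Cxcl2. Ppbp, the gene of the platelet CXC chemokine CXCL7, was not on the list and is named after its values were seen: it was called lower (-0.66 ± 0.14; edgeR adjusted p = 0.027), but not without 48 h replicate 2 (edgeR adjusted p = 0.063). In the fit of the 6 libraries alone 1 CXC member stayed called.

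Among CC chemokines, Ccl2 (ENSMUSG00000035385, chr11:82035571-82037453), the main attractant of monocytes through CCR2, was read at 2078, 2119.7 and 2083 CPM at 24 h and 1338, 1439 and 1231 CPM at 48 h. The 3 libraries at 24 h lay within a narrow band and every 48 h library lay well below it. Its log2 fold change was -0.65 ± 0.07 (edgeR adjusted p = 1.5e-05). Ccl7, which lies beside Ccl2 at chr11:82045712-82047525 and also binds CCR2, changed from 257, 218 and 215 CPM to 160.3, 136 and 139 CPM (-0.66 ± 0.08; edgeR adjusted p = 7e-05). Ccl20, the ligand of CCR6, fell from 1.13, 0.852 and 0.744 CPM to 0.229, 0.389 and 0.365 CPM (-1.47 ± 0.23; edgeR adjusted p = 0.0016), so its change rests on under 2 CPM in each library.

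The start-site flanks of the Cxcl1, Cxcl2 and Cxcl3 genes are shown because these genes lie near each other on chromosome 5, were called lower and carry the same letters. Cxcl5 and Ppbp lie in the same stretch and were also called lower: the RefSeq window of Ppbp does not hold the letters, and that of Cxcl5 was not analysed here. Capitals mark matches to GGGANNTTC on either strand, a form of the kappa B sequence that NF-kB dimers bind. The letters were chosen after the falls were seen. Sequences are from RefSeq (GRCm38.p6), plus strand, 5′ to 3′, and end before the gene's first annotated base.
Cxcl1 (chr5:90890995-90891240): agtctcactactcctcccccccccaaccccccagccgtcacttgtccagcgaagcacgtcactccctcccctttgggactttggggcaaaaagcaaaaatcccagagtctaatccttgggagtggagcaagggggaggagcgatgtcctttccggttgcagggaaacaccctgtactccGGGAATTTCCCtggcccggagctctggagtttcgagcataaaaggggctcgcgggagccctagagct
Cxcl2 (chr5:90903649-90903898): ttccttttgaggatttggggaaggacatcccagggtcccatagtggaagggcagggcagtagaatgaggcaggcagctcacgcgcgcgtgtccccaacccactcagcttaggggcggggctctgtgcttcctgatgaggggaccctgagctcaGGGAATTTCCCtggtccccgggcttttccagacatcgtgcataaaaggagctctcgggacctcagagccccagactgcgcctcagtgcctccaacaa
Cxcl3 (chr5:90785851-90786100): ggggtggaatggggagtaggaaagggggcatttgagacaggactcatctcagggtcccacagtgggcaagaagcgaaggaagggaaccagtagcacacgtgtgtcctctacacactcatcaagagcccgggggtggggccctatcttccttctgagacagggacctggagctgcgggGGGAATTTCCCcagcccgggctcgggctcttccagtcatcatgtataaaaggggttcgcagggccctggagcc
In all 3 the capitals spell the same run of letters, GGGAATTTCCC, which holds overlapping matches on both strands. It sits from -71 to -61 relative to the start site in Cxcl1, from -97 to -87 in Cxcl2 and from -73 to -63 in Cxcl3. Of 32851 RefSeq windows from 250 bases before to 50 after a start, 3.94% held GGGANNTTC, as did 4.52% of the 10609 tested genes with a matched window. RefSeq windows matched 49 of the 67 fallen genes, and 4 of the 49 held it: these genes and Neurl3, a ubiquitin ligase gene. A shorter-spaced form, GGGANTTCC, was in 1.68% of windows, 2.64% of the tested genes and 1 fallen gene, Bcl3. A looser form, GGGNNTTCC, takes in every match of GGGANTTCC, so Bcl3 is counted for both. This looser form was in 5.82% of windows, 8.58% of the tested genes and 4 of the 49 fallen genes (8.16%), near the share of the tested genes. These counts describe letters and were not tested.

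Colony-stimulating factors held the largest fall among the genes named by rule. Of 13 tested genes of these factors and the IL6 family, 3 were lower and none higher (0.446% of all genes tested were called lower). Their median log2 fold change was -0.19. Csf3 (ENSMUSG00000038067, chr11:98701263-98703629), which encodes G-CSF, the growth factor of neutrophil precursors, measured 12.3, 13.3 and 11.4 CPM at 24 h and 2.90, 3.63 and 3.62 CPM at 48 h. The times were far apart, with a log2 fold change of -1.87 ± 0.15 (SE; edgeR adjusted p = 7.2e-07) and a mean 3.65-fold lower. Csf2, which encodes GM-CSF, a growth factor for granulocytes and macrophages, went from 4.58, 5.34 and 4.88 CPM to 2.12, 2.41 and 1.72 CPM (-1.25 ± 0.18; edgeR adjusted p = 0.00067). Lif, an IL6-family cytokine, fell less, from 189, 203 and 192 CPM to 148, 158 and 151 CPM (-0.35 ± 0.05; edgeR adjusted p = 0.00078). Il6 itself, named after its values were seen, was read at 1.70, 1.35 and 2.11 CPM and 0.950, 0.816 and 1.02 CPM. Its groups did not overlap but the difference of -0.89 ± 0.26 did not pass the test (edgeR adjusted p = 0.18).

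Acute-phase genes and genes of NF-kB feedback were 7 lower and none higher of 22 tested (0.446% of all genes tested were called lower). All 22 had a log2 fold change below 0 (median -0.22), against 47.7% of all genes tested. Without 48 h replicate 2, 9 were lower, the added members being Nfkbia and Tnip1, inhibitors of NF-kB signalling. Lcn2 (ENSMUSG00000026822, chr2:32384633-32387797, minus strand), which encodes the iron-siderophore binding lipocalin-2, went from 6.26, 7.93 and 7.93 CPM at 24 h to 3.02, 3.08 and 2.28 CPM at 48 h. Nos2 (ENSMUSG00000020826, chr11:78920787-78960254), the inducible nitric oxide synthase, measured 66.5, 75.4 and 74.7 CPM at 24 h and 33.3, 34.3 and 33.1 CPM at 48 h. In both genes the times were separated by a gap wider than the spread within either time. The log2 fold changes were -1.40 ± 0.12 for Lcn2 (edgeR adjusted p = 7.2e-07) and -1.11 ± 0.08 for Nos2 (edgeR adjusted p = 1.8e-07). Saa3 (ENSMUSG00000040026, chr7:46711998-46715676, minus strand), a serum amyloid A protein gene, was read at 10.5, 9.79 and 10.3 CPM and then 5.35, 5.65 and 4.83 CPM (-0.95 ± 0.12; edgeR adjusted p = 0.00014). C3 (ENSMUSG00000024164, chr17:57203970-57228136, minus strand), the central complement component, was read at 84.1, 89.1 and 95.7 CPM and then 50.1, 54.8 and 51.7 CPM (-0.78 ± 0.07; edgeR adjusted p = 1.2e-06). Nfkbiz, which encodes IkB-zeta, a nuclear cofactor of NF-kB needed for Lcn2 transcription, fell from 117, 119.8 and 115 CPM to 85.3, 79.5 and 75.5 CPM (-0.55 ± 0.05; edgeR adjusted p = 7.7e-06).

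The remaining members called lower, named after their values were seen, were Bcl3, a nuclear IkB protein gene (-0.36 ± 0.07; edgeR adjusted p = 0.026), and Ptges, the inducible prostaglandin E synthase (-0.27 ± 0.05; edgeR adjusted p = 0.0077). Gm16174 overlaps Bcl3 on the opposite strand. The Bcl3 call held without 48 h replicate 2 (edgeR adjusted p = 0.00021) but not without any other library, at adjusted p from 0.065 to 0.18, and the Ptges call was lost without 24 h replicate 2 (edgeR adjusted p = 0.066) or 48 h replicate 3 (0.085). Classic feedback inhibitors did not pass the test. Nfkbia, which encodes IkB-alpha, was read at 160.0, 151 and 146 CPM and then 127, 139 and 120.1 CPM (-0.24 ± 0.07; edgeR adjusted p = 0.14), and passed without 48 h replicate 2 (edgeR adjusted p = 0.029). Tnfaip3, which encodes the deubiquitinase A20, was read at 33.5, 34.5 and 36.1 CPM and then 34.2, 31.4 and 32.2 CPM, and these overlapped. Over the 4 lists of chemokine, cytokine and NF-kB genes, 18 of 51 tested genes were lower and none higher, with a median log2 fold change of -0.24. Over all genes tested 0.446% were lower, and the 18 made up 26.9% of all falls. The CC and colony-stimulating factor lists each had 3 lower without 48 h replicate 2, as with it.

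**Figure D3:**
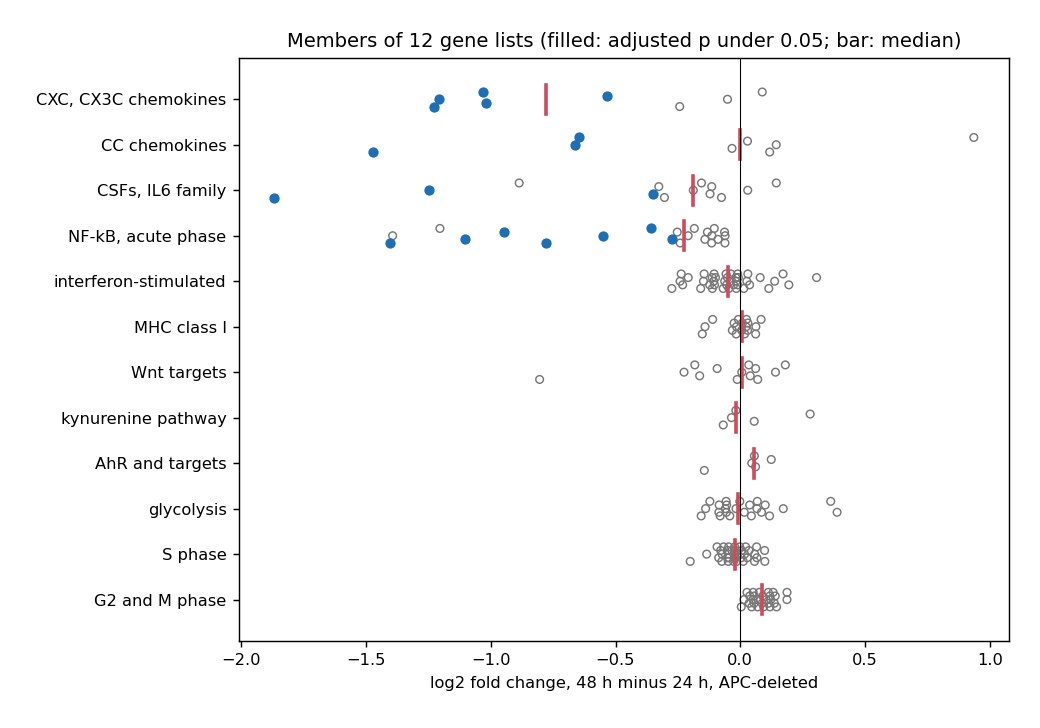
Log2 fold change of 48 h over 24 h (x axis) for each tested member of 12 gene lists (y axis); filled points have an edgeR adjusted p under 0.05 and red bars are list medians. The 4 lists at the top hold all filled points drawn, each of them below 0, with medians from -0.78 to 0.00. The other 8 lists drawn hold none. Of all 49 lists 13 held a call, and those with a call beyond the 4 at the top are not drawn here.

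Upstream flanks of Lcn2, Saa3 and C3 are printed as the acute-phase genes with the letters TTGCNNAA, a form bound by C/EBP factors. Of genes of these factors, Cebpd was among the falls and Cebpb was not called (-0.14 ± 0.20, edgeR adjusted p = 0.92). A link between these genes and the letters was not tested. Capitals mark the match, on either strand. Sequences are RefSeq (GRCm38.p6) on the minus strand, the strand of these genes, 5′ to 3′.
Lcn2 (chr2:32387798-32387989): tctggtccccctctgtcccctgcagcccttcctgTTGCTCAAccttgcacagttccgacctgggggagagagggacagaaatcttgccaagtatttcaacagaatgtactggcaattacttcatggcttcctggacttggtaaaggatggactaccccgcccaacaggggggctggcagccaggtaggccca
Saa3 (chr7:46715677-46715926): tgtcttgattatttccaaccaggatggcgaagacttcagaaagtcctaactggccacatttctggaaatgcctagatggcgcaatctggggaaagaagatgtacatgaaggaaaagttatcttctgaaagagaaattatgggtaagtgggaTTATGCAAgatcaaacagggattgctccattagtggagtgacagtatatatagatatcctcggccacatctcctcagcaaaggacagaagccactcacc
C3 (chr17:57228137-57228386): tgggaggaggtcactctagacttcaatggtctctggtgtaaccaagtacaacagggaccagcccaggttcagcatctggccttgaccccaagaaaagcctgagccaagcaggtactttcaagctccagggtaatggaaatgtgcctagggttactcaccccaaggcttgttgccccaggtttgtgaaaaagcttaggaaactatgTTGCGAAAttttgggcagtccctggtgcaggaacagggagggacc
The match began at -216 in Lcn2, -99 in Saa3 and -45 in C3, relative to the RefSeq start site. The letters were found in 10.8% of all windows, 10.1% of the tested genes and 9 of the 49 matched fallen genes (18.4%). TGANTCA, the AP-1 letters, were in 7.81% of windows, 6.70% of the tested genes and 10 of the 49 (20.4%). GAAANNGAA, of the interferon response element, was in 8.56%, 8.70% and 5 of the 49 (10.2%). The E-box CACGTG was in 7.15%, 11.4% and 7 of the 49 (14.3%). The GC box GGGCGG was in 35.7% of windows but 67.1% of the tested genes, and in 23 of the 49 (46.9%), a lower share than among the tested genes. Both strands were read, and these shares were not compared by a test.

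The naming rule also took falls outside the 4 lists, where 0.446% of all genes tested were called lower. Irg1 (ENSMUSG00000022126, chr14:103046977-103056573), which makes itaconate in activated macrophages, measured 24.7, 26.8 and 25.0 CPM at 24 h and 15.1, 16.2 and 13.1 CPM at 48 h. The lowest 24 h library stood well above the highest at 48 h (-0.78 ± 0.07; edgeR adjusted p = 5.3e-06). Il13ra2, a decoy receptor for IL-13, went from 10.2, 10.6 and 10.7 CPM to 6.89, 4.77 and 6.99 CPM (-0.75 ± 0.12; edgeR adjusted p = 0.0028). In it 48 h replicate 2 was the lowest library, and without that library the difference was -0.60 (edgeR adjusted p = 0.0054). Mmp13, a collagenase, was the 1 member called of 13 tested metalloproteinase and TIMP genes, from 6.73, 6.38 and 6.55 CPM to 4.34, 3.34 and 4.05 CPM (-0.74 ± 0.13; edgeR adjusted p = 0.006). Nppb, which encodes the B-type natriuretic peptide, went from 6.48, 7.55 and 6.31 CPM to 3.50, 3.63 and 3.66 CPM (-0.92 ± 0.11; edgeR adjusted p = 9.4e-05). U90926 went from 6.83, 7.29 and 7.202 CPM to 4.32, 4.12 and 3.75 CPM (-0.81 ± 0.11; edgeR adjusted p = 0.0003).

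Cebpd, which encodes the acute-phase transcription factor C/EBP-delta, was read at 118, 93.7 and 92.2 CPM at 24 h and 64.1, 69.7 and 55.6 CPM at 48 h. One 24 h library was higher than the other 2, but no value at 48 h overlapped, which the naming rule required (-0.68 ± 0.13; edgeR adjusted p = 0.016). That call was lost without 24 h replicate 1 (edgeR adjusted p = 0.1), 48 h replicate 1 (0.086) or 48 h replicate 3 (0.13). Ier3, an NF-kB and stress-induced survival gene, was the 1 member called of 30 AP-1 and immediate early genes, from 153, 138 and 137 CPM to 99.0, 103 and 102 CPM (-0.49 ± 0.06; edgeR adjusted p = 0.00017), and the median of that list was -0.11. Without 48 h replicate 2 the counts lower were 3 for that list and 2 of 13 for the metalloproteinases. Of all genes tested 0.446% were called lower, and without that library 0.831% were lower and 0.432% higher. Col5a3, a chain of type V collagen, was the 1 called of 24 collagens and small proteoglycans (1 higher and 2 lower without 48 h replicate 2), from 28.3, 27.4 and 24.9 CPM to 18.1, 18.6 and 19.1 CPM (-0.53 ± 0.06; edgeR adjusted p = 0.0001). Plk2, a p53-induced kinase, was the 1 called of 23 p53 targets (2 without 48 h replicate 2), from 730.1, 737 and 749.6 CPM to 630.4, 589 and 632 CPM (-0.26 ± 0.05; edgeR adjusted p = 0.0094). Hmox1, the haem oxygenase, was the 1 called of 23 NRF2 targets, from 90.4, 102 and 92.5 CPM to 77.4, 81.8 and 77.5 CPM (-0.27 ± 0.06; edgeR adjusted p = 0.025), and it lost the call without 24 h replicate 2 (edgeR adjusted p = 0.26), 24 h replicate 3 (0.057), 48 h replicate 1 (0.09) or 48 h replicate 3 (0.14). Klf15, a transcription factor of fasting metabolism, fell at under 1 CPM (-1.23 ± 0.26; edgeR adjusted p = 0.034) and lost its call without 24 h replicate 1 (edgeR adjusted p = 0.14), 24 h replicate 2 (0.2), 48 h replicate 1 (0.092) or 48 h replicate 3 (0.18).

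Further falls were named after their values were seen. Odc1, the first enzyme of polyamine synthesis, went from 2542, 2654 and 2373 CPM at 24 h to 1765, 1857 and 1824 CPM at 48 h (-0.47 ± 0.05; edgeR adjusted p = 4e-05). All 48 h libraries lay below all 24 h libraries, and the small gene Gm22748 overlaps it on the same strand. Slc11a2, the divalent metal and iron transporter, went from 147, 148 and 144 CPM to 114, 116 and 112 CPM (-0.36 ± 0.04; edgeR adjusted p = 0.00013), and Gm5475 overlaps it on the opposite strand. Zc3h12a, which encodes the RNase Regnase-1 that degrades cytokine mRNAs, fell from 33.0, 30.7 and 29.0 CPM to 19.0, 22.3 and 19.2 CPM (-0.62 ± 0.09; edgeR adjusted p = 0.00048). Ikbke, a kinase of innate immune signalling, went from 38.4, 43.7 and 39.4 CPM to 21.1, 30.6 and 26.0 CPM (-0.65 ± 0.10; edgeR adjusted p = 0.0013). Upp1, which salvages uracil from uridine, fell by 0.49 on the log2 scale (edgeR adjusted p = 0.00031).

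Rises were fewer and smaller. Of the 11, 8 met the naming rule, and the others were the unnamed loci Gm15564 and Gm5805 and the low-count Fam107a. Klhl30 (ENSMUSG00000026308, chr1:91351016-91362416), a kelch-family gene, had the highest rise by the rule, from 11.1, 10.2 and 10.5 CPM at 24 h to 15.3, 17.3 and 15.2 CPM at 48 h. The groups did not overlap, which the rule required, and the log2 fold change was 0.58 ± 0.07 (SE; edgeR adjusted p = 0.00013). Tgfbi (ENSMUSG00000035493, chr13:56609603-56639339), a secreted matrix protein induced by TGF-beta, rose from 22.2, 21.6 and 20.3 CPM to 28.4, 31.1 and 29.7 CPM (0.48 ± 0.06; edgeR adjusted p = 6.5e-05). It was the 1 member called of 20 tested TGF-beta and BMP response genes, whose median was -0.08. The share called higher over all genes tested was 0.0733%. Aqp1, a water channel, rose from 20.7, 21.3 and 23.8 CPM to 29.4, 29.9 and 29.0 CPM (0.43 ± 0.06; edgeR adjusted p = 0.0003), and Gfra1, a GDNF co-receptor, from 26.8, 26.2 and 25.8 CPM to 36.5, 30.9 and 35.9 CPM (0.39 ± 0.06; edgeR adjusted p = 0.0016).

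Smaller rises were in Mgat3, a glycosyltransferase of N-glycan bisection, from 129, 124 and 126 CPM to 149, 148 and 149 CPM (0.23 ± 0.04; edgeR adjusted p = 0.006), and in Sorcs2, a sortilin-family receptor, from 27.1, 28.5 and 29.5 CPM to 34.0, 34.5 and 35.3 CPM (0.29 ± 0.06; edgeR adjusted p = 0.013). The Mgat3 call was lost without 24 h replicate 2 (edgeR adjusted p = 0.053), and that of Sorcs2 without 24 h replicate 1 (0.11), 24 h replicate 2 (0.069) or 48 h replicate 3 (0.082). Amigo2, an adhesion protein gene that overlaps Pced1b on the opposite strand, went from 116, 114 and 114 CPM to 136, 132 and 141 CPM (0.25 ± 0.05; edgeR adjusted p = 0.021) and kept its call only when 48 h replicate 2 was the library left out. Cyp2d22, a member of a cytochrome P450 family with close copies, went from 9.09, 9.15 and 8.56 CPM to 11.9, 15.5 and 11.3 CPM (0.53 ± 0.12; edgeR adjusted p = 0.045). Its highest value came from 48 h replicate 2, and without that library the change was 0.37 (edgeR adjusted p = 0.088). The call was also lost without 4 of the other 5 libraries.

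**Figure D4:**
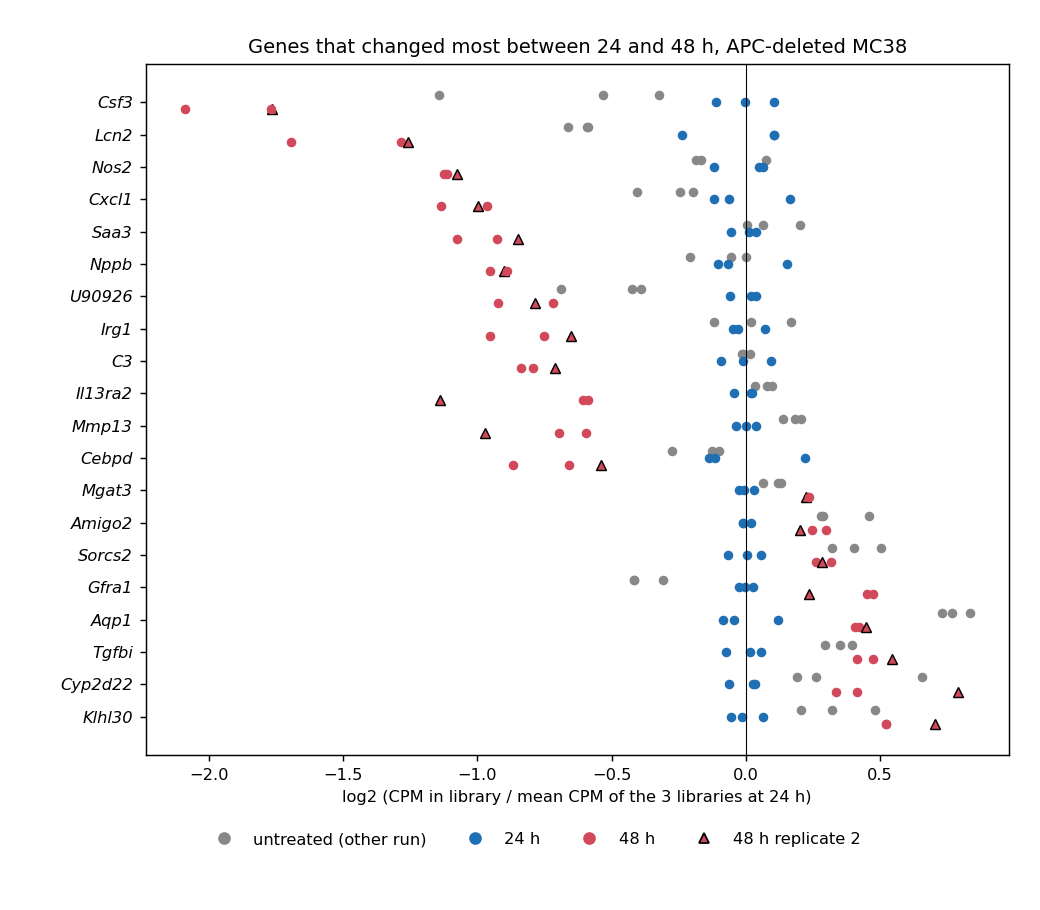
Level of each of the 12 largest falls and 8 rises in every APC-deleted library, as log2 of its CPM over the mean of the 3 libraries at 24 h (x axis); points are libraries, and a black-edged triangle is 48 h replicate 2. The rule that chose these 20 genes required the 48 h points to lie apart from the 24 h points. The grey untreated points come from the other run.

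Pathways tied to the targeted enzyme and the deleted gene held no call. Of 5 tested kynurenine pathway genes none was called and the median log2 fold change was -0.02. Ccbl2, a kynurenine aminotransferase gene and the most highly read of the list, was at 21.8, 20.5 and 20.4 CPM and 21.3, 20.1 and 19.8 CPM. None of 5 tested genes of the aryl hydrocarbon receptor list was called (median 0.06), among them the receptor gene Ahr (-0.14 ± 0.07; edgeR adjusted p = 0.56) and its target Tiparp (0.05 ± 0.10; edgeR adjusted p = 0.95). None of 13 tested Wnt feedback and target genes was called (median 0.01). Axin2, the feedback inhibitor of Wnt signalling, was read at 7.77, 7.44 and 8.17 CPM and 7.32, 8.07 and 7.80 CPM, with a 95% interval of the log2 fold change of -0.20 to 0.18. Ccnd1, which encodes cyclin D1, had an interval of -0.08 to 0.10, and Ctnnb1, the beta-catenin gene, one of -0.07 to 0.12. Not every interval on the Wnt list held 0. Those of Cd44 (-0.346 to -0.105) and Myc (-0.294 to -0.031) lay below it. Those of Ephb3 (0.046 to 0.315) and Rnf43 (0.002 to 0.281) lay above it. The intervals are not adjusted for the number of genes tested.

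Interferon-stimulated genes held no call. None of the 40 tested passed (median -0.05), and 1 was lower without 48 h replicate 2. A log2 fold change below 0 was found in 30 and above 0 in 10, against 47.7% of all genes tested below 0. Without 48 h replicate 2, 25 were below 0. Ifitm3, the most highly read of them, was at 415, 366 and 395 CPM and 381, 459 and 362 CPM, overlapping between times. No call was made among 18 genes of MHC class I and antigen processing (median 0.01), 24 of glycolysis (-0.01) or 36 of DNA replication and S phase (-0.02). None of 28 genes of G2 and M phase was called, although all 28 had a log2 fold change above 0 (median 0.09), against 52.3% of all genes tested. Of the 28, 26 were above 0 without 48 h replicate 2. Top2a, the most highly read of these, was at 933, 917 and 954 CPM at 24 h and 1079, 882 and 1085 CPM at 48 h, with only 48 h replicate 2 below the 24 h libraries. Signs were uneven in further lists. Below 0 were 26 of 30 AP-1 and immediate early genes and 21 of 25 ATF4 and amino acid supply genes. Above 0 were 62 of 76 cytosolic ribosomal protein genes. Without 48 h replicate 2 these numbers were 27, 20 and 36. Of 49 lists in all, 36 held no call, with medians from -0.19 to 0.20. With 48 h replicate 2 left out, 30 held none: the interferon-stimulated genes, cholesterol synthesis, fatty acid synthesis, lipid oxidation and nuclear long noncoding RNAs had 1 call each and the ATF4 and amino acid supply genes 2. The count of the glucose-sensing and starvation-responsive genes went from 1 to 2 lower. Of all genes tested 0.52% were called with 48 h replicate 2 and 1.26% without it. Vim, a mesenchymal gene read at 1629.8, 1601 and 1617 CPM and then 1799, 1965 and 1747 CPM, did not overlap between times but did not pass the test (0.19 ± 0.05; edgeR adjusted p = 0.16).

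Leaving out 48 h replicate 2 added 121 calls, 57 higher and 64 lower. The added rises were in long genes, with a median exon length of 4939 bases against 3224 over all genes tested, and this library was low in long genes. Their link was not tested. Among the 5 with the largest shift, Phex, a peptidase gene of phosphate balance, was read at 10.97, 6.75 and 10.7 CPM at 48 h against 8.04, 8.40 and 7.35 CPM at 24 h. Its second value lay below the 24 h libraries and the other 2 above them, and without it the change was 0.45 (edgeR adjusted p = 0.0095). Rpl22l1, a ribosomal protein paralog, showed the same order at 98.5, 59.7 and 97.3 CPM against 77.4, 61.8 and 68.5 CPM (0.50 without it; edgeR adjusted p = 0.037). In Hap1, Nsmf and Il3ra replicate 2 was instead the highest 48 h library, and without it they changed by -0.26, -0.26 and -0.44 (edgeR adjusted p = 0.037, 0.047 and 0.04). Hap1 overlaps Gm20394 on the same strand.

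Calls among circadian genes depended on the same library. Of 16 tested, Arntl, which encodes the clock activator BMAL1, was the 1 called, lower at 51.0, 46.5 and 48.5 CPM against 55.0, 57.0 and 56.1 CPM (-0.20 ± 0.05; edgeR adjusted p = 0.046). Its call was lost without 48 h replicate 2 (edgeR adjusted p = 0.061) and was kept only when 48 h replicate 1 was the library left out. Then, without 48 h replicate 2, 3 other members were higher, named here after their values were seen: Nr1d2 (0.27), Tef (0.19) and Hlf (0.30), with edgeR adjusted p = 0.042, 0.047 and 0.032. Among all genes tested 0.446% were called lower with that library and 0.432% higher without it. Dbp, an output gene of the clock, was read at 14.7, 12.9 and 15.1 CPM and then 20.5, 22.4 and 19.7 CPM (0.55 ± 0.12; edgeR adjusted p = 0.051), and Sphk2 overlaps it on the opposite strand. Ccrn4l, the deadenylase nocturnin, fell from 47.3, 47.4 and 48.9 CPM to 41.2, 36.7 and 40.0 CPM (-0.28 ± 0.06; edgeR adjusted p = 0.031) and lost its call without 48 h replicate 2 (edgeR adjusted p = 0.057), as it did without 4 of the other 5 libraries.

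The APC-intact line, which shares no library with this comparison, gave 111 genes between 48 and 24 h (0.74% of those tested), 14 of them higher (0.0933%) and 97 lower (0.646%). Its 2 times lie in different runs, so time and run cannot be told apart there. The lines shared 49 called genes, 62.8% of the 78 and 44.1% of the 111, of which 42 were lower and 7 higher in both. In APC-intact cells Csf3 was at 1.77, 1.88 and 1.64 CPM at 24 h and 0.587, 0.698 and 0.691 CPM at 48 h (-1.42 ± 0.19; edgeR adjusted p = 0.0003), and Nos2 at 67.5, 58.9 and 65.2 CPM and 27.9, 25.4 and 26.7 CPM (-1.26 ± 0.08; edgeR adjusted p = 2.1e-08). Ccl2 changed there by -0.84 ± 0.07 and Lcn2 by -1.40 ± 0.11. The sign was the same for 77 of the 78 genes, the exception being Fam107a at under 1 CPM. The difference of the time effect between the lines was called for 0 of 15006 genes by edgeR and 0 by DESeq2, with 471 genes at an unadjusted p under 0.05 and a smallest adjusted p of 0.993. Of the 78 genes, 18 were among those at an unadjusted edgeR p under 0.05. But the 78 were chosen by their change in the APC-deleted line, which enters this difference. The run is part of it as well. Leaving out APC-intact 24 h replicate 3 raised the APC-intact count to 442 and that of the difference to 1, and leaving out APC-intact 48 h replicate 2 lowered the APC-intact count to 64.

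**Figure D5:**
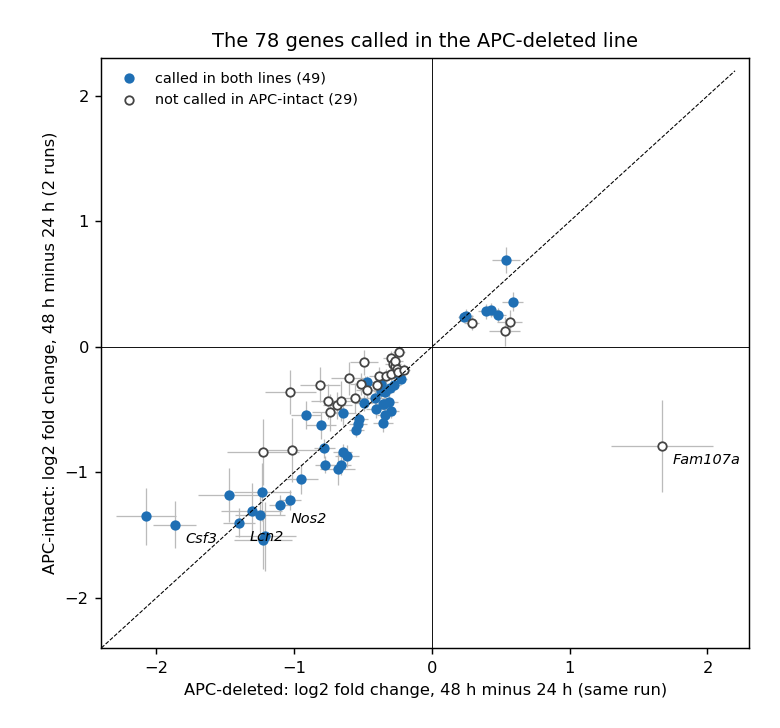
Log2 fold change of 48 h over 24 h in APC-intact cells (y axis) against APC-deleted cells (x axis) for the 78 genes called in the latter; bars are standard errors and the dashed line is equality. The 49 genes called in both lines (blue) have the same sign in both, some of them away from the line, such as RP24-312B12.1 (-2.07 against -1.35 in APC-intact cells). Fam107a is the 1 gene of opposite sign.

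Untreated APC-deleted libraries, from the other run, give the level without doxycycline, so that doxycycline, the hairpin line and the run cannot be told apart in these differences. The 24 h and 48 h libraries enter these differences as well as the main one, so they are not independent of it. Against untreated cells 878 genes were called at 24 h (5.85%), 312 of them higher (2.08%) and 566 lower (3.77%). At 48 h 679 were higher (4.52%) and 974 lower (6.49%). Csf3 was higher than untreated at 24 h (0.63; edgeR adjusted p = 0.014), as were Lcn2 (0.61; 0.002), Csf2 (1.03; 0.0013) and Cxcl1 (0.28; 0.042). At 48 h Csf3, Lcn2 and Cxcl1 were lower than untreated, with log2 fold changes of -1.24, -0.79 and -0.75, and Csf2 was not called (-0.21; edgeR adjusted p = 0.49). Nos2, C3, Saa3, Irg1 and Ccl2 were not called at 24 h against untreated, with log2 values from -0.12 to 0.09, and were lower than untreated at 48 h, with values from -1.04 to -0.76. Of the rises, Aqp1, Tgfbi, Klhl30, Sorcs2 and Amigo2 were lower than untreated at 24 h, Aqp1 most, with a log2 fold change of -0.78. At 48 h Aqp1 was still below untreated (-0.35), Klhl30 was above it (0.24), and the other 3 were not called. Gfra1 was the 1 of these 8 rises above untreated at both times, by 0.38 and 0.77.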

How the data were processed

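RNA was sequenced from MC38 cells in 6 groups of 3 libraries, grouped by their titles. Values used are the whole-number gene counts that the authors deposited; STAR, HTSeq and mm10 appear in the submitters' processing notes. Tool versions, strandedness and annotation release are not given in the sources used here. The deposited RPKM values were not used. Entries naming no gene, 23.7 to 25.0% of the total in the 6 libraries compared, entered neither library sizes nor tests.

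The test was edgeR 4.0.16 (R 4.3.3): filterByExpr by group, TMM scaling, a coefficient for each group, robust glmQLFit and glmQLFTest, with p-values adjusted by Benjamini and Hochberg over 15006 genes and a threshold of 0.05. All 18 libraries entered the fit so that groups share 1 estimate of the spread (common biological coefficient of variation 8.33%). Without 48 h replicate 2, 15282 genes passed the filter. Precision rests on 3 libraries per time and at least 76705116 gene counts in each of them. P-values use the spread between libraries within groups, pooled over all 18 libraries, and cover no other spread. The steps were tested on simulated data with known changes. Alternatives were DESeq2 1.42.0, other size factors, no filter, fewer libraries in the fit, thinned counts, a replicate block and leaving out each library.

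Members, gene lists and tests were chosen with earlier results of these data known. Among called genes with a symbol, no overlap between times and 5 CPM or more in the higher group, the naming rule took the 12 largest falls and the 12 largest rises (52 falls and 8 rises qualified). It also took up to 4 called members per list, the highest member of a list with no call, Tdo2, Apc, and the 5 genes that moved most on gaining or losing a call without 48 h replicate 2 (3 qualified as lost). Promoter windows were RefSeq's, matched by symbol or synonym.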

Additional observations from a re-analysis of the deposited data

How the results depend on the processing

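The 78 calls became 191 (61 higher, 130 lower) with DESeq2, 22 (3 and 19) with only the 6 libraries and 12 (0 and 12) with a replicate block on those 6. They numbered 80 with other size factors, 97 without a filter, 76 after thinning, 60 with the 9 libraries of the run and 86 with a replicate block over all 18. Leaving out 1 library gave 47 to 193 calls, 5 to 66 higher and 42 to 127 lower. All 78 kept their sign in each of these settings. Same-numbered libraries correlated at 0.05, -0.012 and 0.035 in their deviations, and not every library correlated best with its own number. With 3 libraries per time, these values cannot settle whether the numbers pair the libraries. Without 48 h replicate 2 the 193 calls became 570 with DESeq2 and 1194 with only the 5 libraries left. In APC-intact cells 111 became 238 with DESeq2 and 64 to 442 on leaving out 1 library, and the difference between the lines gave 0 to 1. The cause of these shifts was not tested. Of 46 called genes named, 11 kept the call in all 14 settings, Csf3, Nos2, Cxcl1, Lcn2, Ccl2 and C3 among them, and none changed sign.

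Sign changed only in genes not called. Ccnd1 went to -0.0063 without a filter and -0.0050 with the 9 libraries of the run. Tdo2 went to 0.28 after thinning. On leaving out 1 library the lowest and highest values were -0.013 and 0.033 for Ccnd1, -0.26 and 0.32 for Tdo2, -0.039 and 0.10 for Apc, -0.047 and 0.020 for Axin2, -0.061 and 0.19 for Tiparp, -0.081 and 0.10 for Ifitm3, -0.26 and 0.067 for Hap1 and -0.26 and 0.024 for Nsmf. Depth limits Tdo2 and other genes near 0.1 CPM, and 14 of the falls were under 5 CPM in the higher group.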
